A study of Mus musculus with 18 samples.

Results

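Mirtrons and capped miRNA hairpins give rise to microRNAs whose precursors do not need the Microprocessor, the nuclear complex of Drosha and Dgcr8 that cuts most primary miRNA transcripts. The products of these classes followed here were mmu-miR-877-5p, mmu-miR-877-3p, mmu-miR-1224-5p and mmu-miR-702-3p from mirtrons, and mmu-miR-320-3p and mmu-miR-484 from capped hairpins (mmu marks the mouse and is left out below). These 6 mature miRNAs were chosen by name from 1359 mature miRNAs listed over all tables of a mouse small RNA sequencing series. The question the series addresses is how the miR-17~92 primary transcript, an oncogenic cluster cut by the Microprocessor, bears on the processing of other miRNAs. Mouse embryonic fibroblasts (MEF) carried miR-17~92 overexpressed (OV, 3 libraries), floxed and intact (fl/fl, 3) or deleted (d/d, 3). A further set of MEF, in which both groups lack miR-17~92, received an empty construct (Empty, 3 libraries) or overexpressed miR-290~295, a cluster of embryonic stem cells (3). Splenic B cells gave 1 library each of OV, fl/fl and d/d. The labels give the strain Eu-myc for every sample, a line in which a Myc transgene is driven by the immunoglobulin heavy chain enhancer, and give no age, sex, clone or number of animals. Nothing in the labels says that replicates were separate cultures, so p-values measure the spread between these libraries, which may be technical. Single libraries are named OV1, OV2 and OV4, FL3, FL4 and FL5 (fl/fl), and DEL1, DEL2 and DEL3 (d/d), as their columns are.

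In a mirtron the splicing machinery cuts out a short intron whose ends are the ends of the hairpin, and after debranching the lariat folds and goes straight to export and Dicer. In a capped hairpin transcription itself sets the 5′ end of the precursor, which then carries a cap. The capped miR-320 precursor leaves the nucleus through Exportin-1 and yields mostly its 3p arm. MiR-484 is classed with it, and its annotated product comes from the 5p side of its hairpin. The 6 products share the later steps, Dicer and Argonaute loading, with all other miRNAs.

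The mature sequences are shown so that their seeds can be compared. The capitals mark the seed, bases 2 to 8, which selects the targets of a miRNA. RefSeq's table for GRCm38.p6 held 5 of the 6 members, and miR-702-5p and miR-3102-5p, from the rest of the class, are shown with them because they share 1 seed.
miR-877-5p: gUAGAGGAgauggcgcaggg
miR-877-3p: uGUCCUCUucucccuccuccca
miR-1224-5p: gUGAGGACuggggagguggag
miR-702-3p: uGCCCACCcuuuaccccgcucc
miR-484: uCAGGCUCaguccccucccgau
miR-702-5p: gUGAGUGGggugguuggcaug
miR-3102-5p: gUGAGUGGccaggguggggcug
No other listed and matched miRNA had the seed of any of the 5 members shown. Their GC content was 65.0% for miR-877-5p, 59.1% for miR-877-3p, 66.7% for miR-1224-5p, 68.2% for miR-702-3p and 63.6% for miR-484. The median over 1147 matched mature miRNAs was 52.2%, and 16.9% of them had at least 63% GC.

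The hairpins are shown so that their ends can be set against the ends of introns, with the annotated mature arms in capitals.
miR-877 hairpin: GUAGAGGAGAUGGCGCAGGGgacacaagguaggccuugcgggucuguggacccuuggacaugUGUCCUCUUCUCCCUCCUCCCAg
miR-1224 hairpin: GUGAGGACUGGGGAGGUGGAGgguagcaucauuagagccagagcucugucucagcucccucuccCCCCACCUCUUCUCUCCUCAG
miR-702 hairpin: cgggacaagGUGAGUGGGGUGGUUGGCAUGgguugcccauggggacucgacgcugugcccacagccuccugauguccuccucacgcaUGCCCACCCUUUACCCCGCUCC
miR-484 hairpin: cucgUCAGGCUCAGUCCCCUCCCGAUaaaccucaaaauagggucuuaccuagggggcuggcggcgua
The hairpins of miR-877 and miR-1224 begin with GU and end with AG, the letters at the ends of most introns, as do 30 of 1005 RefSeq hairpins (2.99%). The miR-877 hairpin, at chr17:35960730-35960814 on the minus strand of GRCm38, is exactly intron 12 of Abcf1 in the GENCODE annotation, 85 bases long. The miR-1224 hairpin, at chr16:20604452-20604536 on the plus strand, is exactly intron 22 of Vwa5b2 (transcript Vwa5b2-202), also 85 bases long. The miR-702 arms span chr5:136991442-136991541 on the plus strand. They begin at the first base of intron 13 of Plod3 and stop 2 bases before its end, so that the 5p product starts at the splice site. The miR-484 hairpin, at chr16:14159626-14159692 on the plus strand, partly overlaps an exon of Marf1 on the opposite strand, and the nearest annotated Marf1 start lies 359 bases away. The miR-320 gene, at chr14:70443510-70443591 on the plus strand, lies in no other annotated gene, 63 bases from the start of Polr3d on the opposite strand.

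A library of the miR-17~92 MEF set held 17191892 to 24920911 reads on listed miRNAs, one of the miR-290~295 set 43164128 to 58911475, and a B-cell library 10203586 to 10612256. The labels were checked on the manipulated clusters. MiR-17-5p had mean normalized counts of 11098, 3299 and 46.9 in MEF with OV, fl/fl and d/d, and miR-294-3p had 4860 with miR-290~295 against 14.1 with Empty. The Empty and miR-290~295 groups also differed in the remaining counts of the miR-17~92 cluster. MiR-17-5p had 31.1 with Empty against 4.28 with miR-290~295, and miR-92a-3p had 711 against 147. Fibroblast markers (miR-199a, miR-214, miR-143 and miR-145a, 5 of 5 listed) summed to between 1112360 and 1514020 normalized counts in the 9 MEF libraries of the first set. Blood markers (5 of 6 listed, the myeloid miR-223-3p not among them) summed there to between 4160 and 9716, nearly all of it miR-155-5p (4140 to 9693), with each of the other 4 at most 33.2 in any library. On the RPM scale, reads relative to all listed reads of a library, miR-155-5p was higher in these MEF (218 to 435) than in the B cells (55.9 to 78.1). In B cells all 6 blood markers were listed and summed to between 141920 and 151305, nearly all of it the 2 arms of miR-142a. MiR-150-5p had 71.0, 62.2 and 8.73 in the OV, fl/fl and d/d libraries. MiR-223-3p had at most 15.9 and miR-451a at most 37.5. Summed epithelial markers (5 of 6 listed) were 9431 to 12278 there, led by miR-203-3p. Summed neuronal markers (2 of 3 listed) were 57307.5 to 63360, led by miR-128-3p. The library Empty 1 stood apart, with a chi-square per degree of freedom of its reads of 1837 against Empty 2 and 3546 against Empty 3, where those 2 gave 582 against each other. The fl/fl library FL3 gave 581.5 against FL4 and 308.3 against FL5, where those 2 gave 63.49 against each other. In bulk samples fewer cells of a type and less RNA per cell cannot be told apart.

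The members covered a wide range of levels. In the miR-17~92 MEF table, mmu-miR-320-3p ranked 48 of 1204 miRNAs by mean normalized count and mmu-miR-484 ranked 104. The mirtron products ranked lower, with mmu-miR-877-5p at 255, mmu-miR-1224-5p at 459, mmu-miR-877-3p at 503 and mmu-miR-702-3p at 682. The order was similar in the miR-290~295 table, where the ranks of 1265 were 47 for miR-320-3p, 104 for miR-484, 278 for miR-877-5p, 473 for miR-877-3p, 558 for miR-1224-5p and 618 for miR-702-3p. In B cells, miR-320-3p ranked 49 and miR-484 ranked 65 of 756, and miR-1224-5p was not among the listed miRNAs. Together the members took between 0.198% and 0.354% of the listed reads of a MEF library, of which miR-320-3p made up 77.5% to 86.7%.

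Across the 9 libraries of the miR-17~92 MEF set, 3 members were among the steadiest miRNAs and 1 was among the most variable. The standard deviation of log2(normalized count + 1) was 0.197 for miR-877-5p, 0.216 for miR-320-3p and 0.242 for miR-484, against a median of 0.524 over the 662 miRNAs kept for testing, those whose mean reached 10 normalized counts. It was 0.568 for miR-877-3p and 1.48 for miR-1224-5p, the latter at the 85.2 percentile of all miRNAs. MiR-702-3p, with a mean under 10, was not in that set. The smallest member levels are low: miR-702-3p had 0 to 20 reads in these libraries, and with 0 reads in fl/fl library FL3 its level there is bounded by 3 reads.

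**Figure D1:**
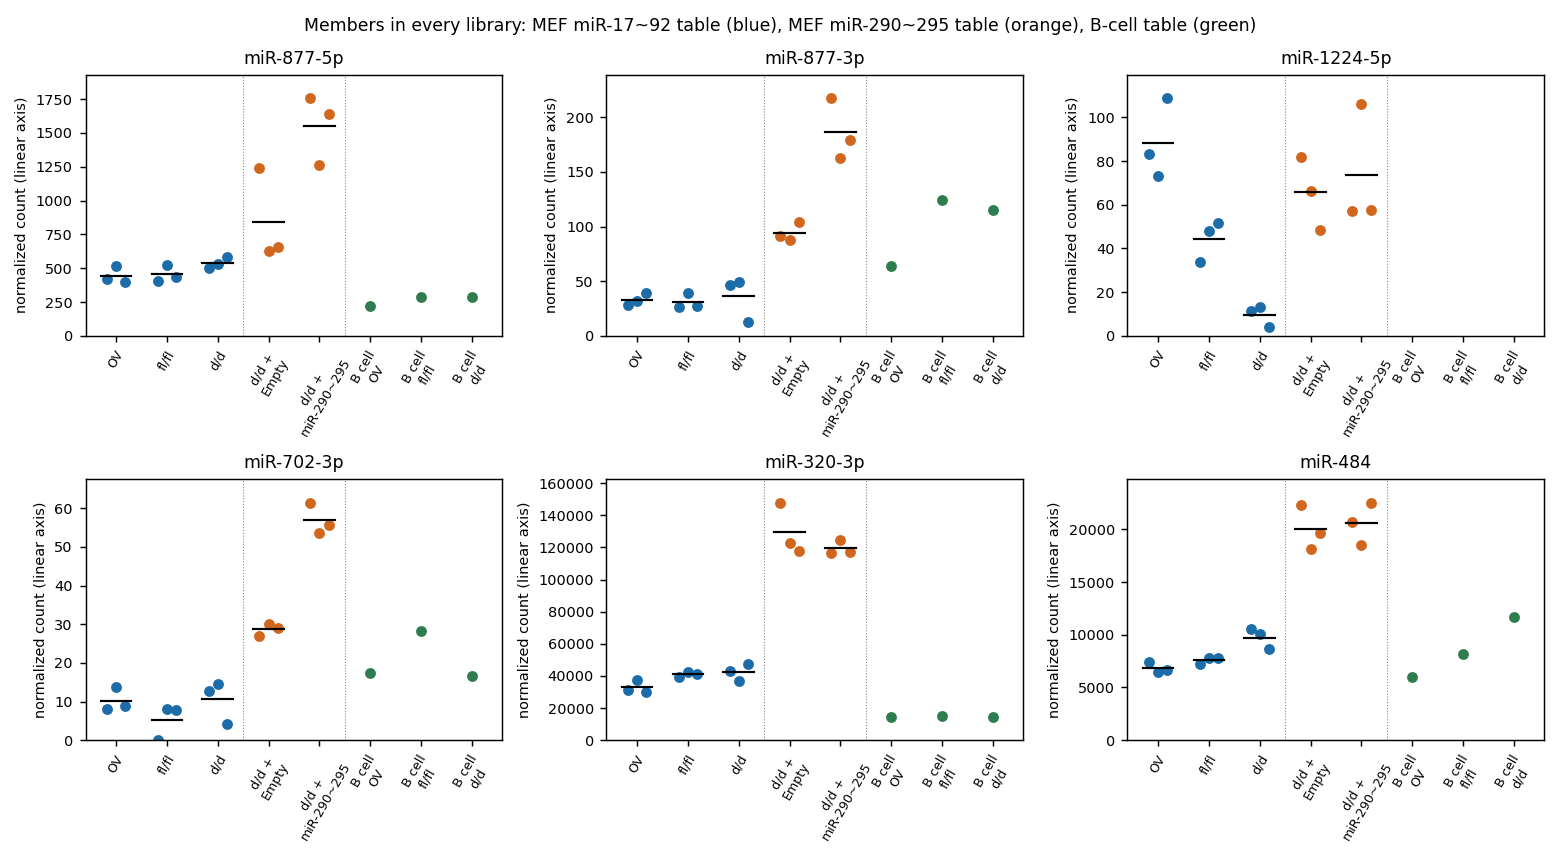
Normalized count (linear axis from 0) of each member in every library, 1 panel per member; points are libraries and black bars are group means of 3. MiR-1224-5p is lowest in d/d (4.25 to 13.1), the miR-877 and miR-702 products are higher with miR-290~295 than with Empty in the table without spike-ins, and levels are not comparable between the 3 tables.

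In the first MEF set miR-1224-5p, the product of the Vwa5b2 intron, was lower in d/d than in OV and fl/fl. It had 83.3, 73.2 and 109 normalized counts in the OV libraries, against 33.8, 48.1 and 51.5 for fl/fl and 11.4, 13.1 and 4.25 for d/d. No 2 of the 3 groups overlapped, with OV highest and d/d lowest. The d/d values rest on 16, 18 and 4 reads, and their mean, 9.57, was under 10. On the RPM scale miR-1224-5p had 3.67 to 5.76 in OV, 1.77 to 2.64 in fl/fl and 0.224 to 0.722 in d/d. The Empty libraries, which lack the same cluster, had 0.96 to 1.69, above d/d and below fl/fl. They belong to the other MEF set, and the reason for this difference was not tested. Against fl/fl, miR-1224-5p fell in d/d by 2.20 ± 0.37 (SE) on the scale of log2(normalized count + 1), 4.61-fold, with an adjusted p of 0.000505 by limma (Benjamini-Hochberg over all miRNAs kept, as for every adjusted p here). In OV it was 3.18 ± 0.37 log2 units above d/d, 9.09-fold, with an adjusted p of 3.04e-05. The OV and d/d comparisons with fl/fl share the fl/fl libraries. Summed epithelial markers (5 of 6 listed, miR-141-3p not among them), at most 278 normalized counts, also differed between the groups. They ran from 163 to 198 in the OV libraries, from 268 to 278 in the fl/fl libraries and from 64.6 to 98.8 in the d/d libraries. The single epithelial markers did not all move alike. MiR-200b-3p had means of 25.9, 156.4 and 13.3 in OV, fl/fl and d/d, and miR-200c-3p and miR-200a-3p had the same order. MiR-203-3p had 101.8, 63.8 and 36.7, highest in OV. MiR-205-5p had 16.94, 3.29 and 16.98, lowest in fl/fl. Summed blood markers were 5773 to 9716, 8055 to 8500 and 4160 to 5815 in the OV, fl/fl and d/d libraries. Summed neuronal markers (3 of 3 listed) were 9900 to 11565, 14115 to 15724.5 and 13252 to 14185, lowest in OV. Nearly all of that sum was miR-128-3p, with means of 10875, 14963 and 13561. Among the other neuronal markers, miR-9-5p had means of 129, 112 and 72.5, and miR-124-3p 0, 1.43 and 0. The part of these markers in the result was not tested. Without FL3 the drop in d/d was −2.39 (adjusted p 0.00118 by limma), and OV was 0.80 above fl/fl (0.187). The comparison of OV with fl/fl gave 0.98 ± 0.37 with an adjusted p of 0.0679 by limma and did not pass 0.05. It passed with spike-in scaling (adjusted p 0.0406), with a pseudocount of 5 (0.0321), with edgeR (0.0218) and with DESeq2 (0.0113), over a range of 0.0113 to 0.187 across the alternatives. The drop in d/d and the excess of OV over d/d passed under all 13 alternatives run for them.

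No member passed the test in OV against fl/fl. By limma this was 0 of the 5 members kept, where 31.3% of all 662 miRNAs passed, 15.6% higher and 15.7% lower. The 207 miRNAs behind that share became 124 without FL5. The unadjusted p by limma was 0.024 for miR-1224-5p and 0.0293 for miR-320-3p. Both edgeR and DESeq2 called 1 member, where they called 27.5% and 35.8% of all miRNAs. With spike-in scaling 1 member and 23.5% of all miRNAs passed. MiR-320-3p had 31282, 37740 and 30132 normalized counts in OV and 39351, 42672 and 41267 in fl/fl. The groups did not overlap, with OV lower, and the log2 difference was −0.32 ± 0.13 with an adjusted p of 0.0777 by limma (0.0313 without OV2, range over alternatives 0.0313 to 0.38). MiR-484 had 7399, 6496 and 6691 in OV and 7191, 7775 and 7801 in fl/fl, and the groups overlapped, with a difference of −0.15 (95% interval −0.40 to 0.11). MiR-877-5p, the arm that starts at the splice site, had 419.6, 512.7 and 398.8 in OV and 406.2, 521.2 and 435.4 in fl/fl. MiR-877-3p, its partner, had 27.8, 32.0 and 39.5 in OV and 26.6, 38.9 and 26.9 in fl/fl. The groups overlapped for both arms. MiR-877-5p differed by −0.03 (95% interval −0.38 to 0.31), a direction that turned to 0.101 with spike-in scaling and 0.009 with edgeR, and miR-877-3p by 0.11 (−0.89 to 1.11), −0.02 with medians re-centred. MiR-702-3p had 7.94, 13.7 and 8.79 in OV and 0, 8.02 and 7.83 in fl/fl, with OV1 just under FL4; in the fit with no minimum it differed by 1.34, with an adjusted p of 0.276 by limma.

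In d/d against fl/fl, 2 of the 5 members passed by limma, where 58.3% of all 662 miRNAs did, 30.7% higher and 27.6% lower. MiR-1224-5p was lower and miR-484 was higher. MiR-484 had 7191, 7775 and 7801 normalized counts in fl/fl and 10498, 10050 and 8616 in d/d. The groups did not overlap, with d/d higher by 0.35 ± 0.12 and an adjusted p of 0.023 by limma, but the difference turned to −0.078 with spike-in scaling (adjusted p 0.622) and was 0.069 with medians re-centred (0.691). The call was also lost without FL3, FL4, FL5, DEL1 or DEL2 (0.0519 to 0.0826; range over alternatives 0.00687 to 0.691). MiR-877-5p had 406.2, 521.2 and 435.4 in fl/fl and 501.9, 532.4 and 582.6 in d/d, so that the groups overlapped, with a difference of 0.25 (95% interval −0.09 to 0.60, adjusted p 0.19 by limma) that turned to −0.178 with spike-in scaling. MiR-320-3p differed by 0.04 and miR-877-3p by 0.04, and spike-in scaling turned both, to −0.391 (adjusted p 0.0463, range 0.0463 to 0.969, by limma, where 64.7% of all miRNAs passed) and −0.378. In d/d, miR-877-3p had 46.9, 49.4 and 12.8 normalized counts, and miR-702-3p had 12.8, 14.5 and 4.25, a difference of 1.27 from fl/fl with an adjusted p of 0.25 by limma in the fit with no minimum. The d/d library DEL3 was lowest for miR-877-3p, miR-702-3p and miR-1224-5p. Without it miR-877-3p differed by 0.65.

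Between OV and d/d, the groups farthest apart in miR-17~92, 3 of the 5 members passed by limma, where 52.4% of all 662 miRNAs did, 26.7% higher and 25.7% lower. MiR-1224-5p was higher in OV, and miR-484 and miR-320-3p were lower. MiR-484 was lower by 0.50 ± 0.12, with an adjusted p of 0.00397 by limma and no overlap, but it read 0.067 with spike-in scaling and −0.345 with medians re-centred (adjusted p 0.0524). MiR-320-3p had 31282, 37740 and 30132 in OV and 43124, 36666 and 47553 in d/d, so that the groups overlapped. Its difference was −0.36 ± 0.13 (adjusted p 0.0349 by limma), which turned to 0.207 with spike-in scaling, and the call was lost with medians re-centred, with no minimum, with edgeR and without OV1, OV4, DEL1 or DEL3 (range over alternatives 0.0126 to 0.326). MiR-877-5p and miR-877-3p did not pass, and the direction of miR-877-5p, −0.29, turned to 0.28 with spike-in scaling.

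The scaling also moved the whole set of miRNAs. In OV against d/d the median change of all miRNAs was 0.02 without spike-ins and 0.60 with them, in d/d against fl/fl 0.01 and −0.39, and in OV against fl/fl −0.07 and 0.07. Relative to the median of all miRNAs, miR-1224-5p in d/d against fl/fl stood at −2.22 without and −2.20 with spike-in scaling, and miR-484 at 0.34 and 0.31. A size factor moves all miRNAs of a library nearly alike, so these pairs had to be close. Their closeness is no test of the scaling. The 5 members kept had a median change of −0.03 in OV against fl/fl, 0.04 in d/d against fl/fl and −0.29 in OV against d/d without spike-ins, beside −0.07, 0.01 and 0.02 for all miRNAs.

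**Figure D2:**
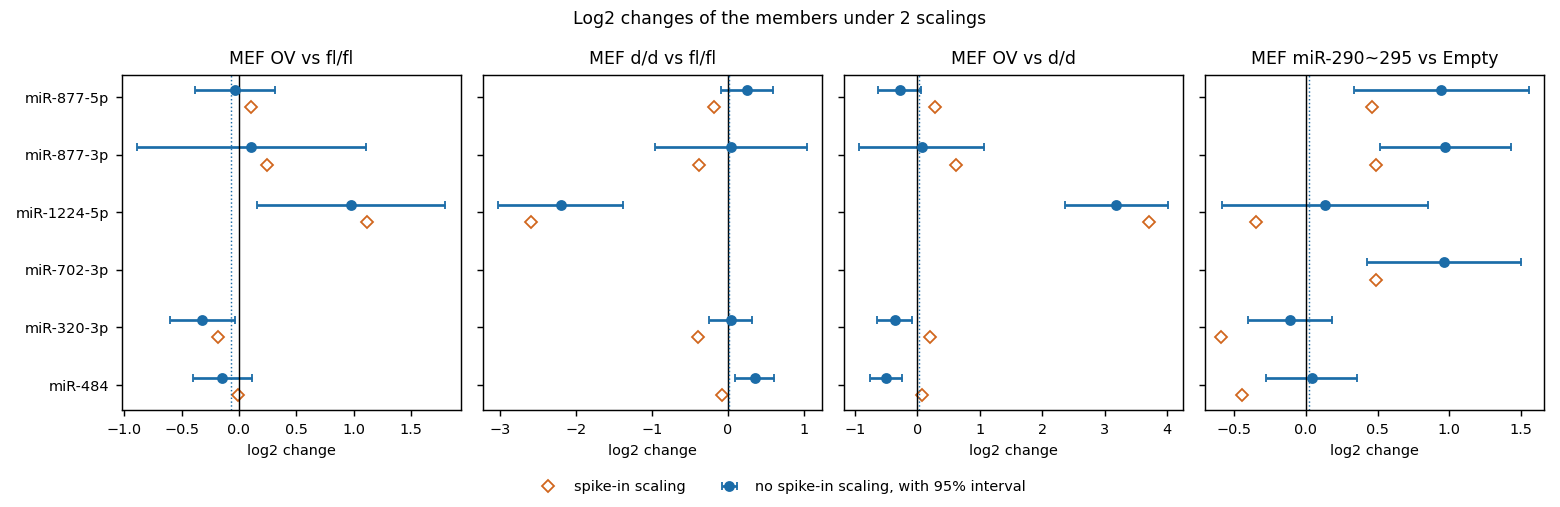
Log2 change (horizontal axis) of each member in 4 MEF comparisons: filled circles with 95% intervals are the table without spike-ins, open diamonds the table with spike-ins, and the dotted line the median of all miRNAs without spike-ins. MiR-1224-5p keeps its direction in the first 3 comparisons, while miR-484 in d/d against fl/fl changes sign, from 0.35 to −0.08, and miR-702-3p is shown in the fourth only, since its mean is under 10 in the other set.

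Overexpression of miR-290~295 in MEF without miR-17~92 was accompanied by higher mirtron products of Abcf1 and Plod3 in the table without spike-ins. By limma, 3 of the 6 members passed, all higher, where 38.9% of all 840 miRNAs passed, 16.7% higher and 22.3% lower. MiR-877-3p had 91.1, 87.7 and 104 normalized counts with Empty and 217, 163 and 180 with miR-290~295. The groups did not overlap, and the difference was 0.97 ± 0.20, 1.96-fold, with an adjusted p of 0.00514 by limma. MiR-702-3p had 27.0, 30.1 and 29.1 with Empty and 61.5, 53.6 and 55.8 with miR-290~295, with no overlap, a difference of 0.96 ± 0.24 and an adjusted p of 0.0113 by limma (0.0503 without miR-290~295 library 1). MiR-877-5p had 1244, 625.3 and 656.8 with Empty and 1756, 1265 and 1638 with miR-290~295. Empty 1 lay just under the lowest miR-290~295 library. The difference of 0.94 ± 0.27 (adjusted p 0.0224 by limma) was lost without Empty 2, Empty 3, or miR-290~295 library 1 or 3 (0.0521 to 0.0908), and was 1.26 without Empty 1. Without Empty 1 the differences of miR-877-3p and miR-702-3p were 0.95 and 0.92, and all 3 passed. With spike-in scaling none of the 3 was called, at 0.46, 0.492 and 0.491 for miR-877-5p, miR-877-3p and miR-702-3p (adjusted p 0.228, 0.131 and 0.199 by limma), and the median change over all miRNAs was −0.46 where it was 0.02 without spike-ins. Relative to the median of all miRNAs they stood at 0.92, 0.95 and 0.95 with spike-ins and at 0.92, 0.95 and 0.94 without. These values are also close by construction, and they do not show that the calls hold under both scalings.

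The remaining members did not pass. MiR-1224-5p had 82.1, 66.4 and 48.5 with Empty and 57.2, 106 and 57.5 with miR-290~295, and the groups overlapped. Its difference of 0.13 (95% interval −0.58 to 0.85) turned to −0.344 with spike-in scaling. MiR-484 differed by 0.04, which turned to −0.444 with spike-in scaling and −0.068 with medians re-centred, and miR-320-3p by −0.11, which with spike-in scaling was −0.594 and called lower (adjusted p 0.0149 by limma, range 0.0149 to 0.948), where 45.7% of all miRNAs passed and 39.1% were lower. Summed fibroblast markers moved with the groups here, between 2947170 and 4212110 with Empty and between 1817220 and 2092160 with miR-290~295; their part in these results was not tested.

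**Figure D3:**
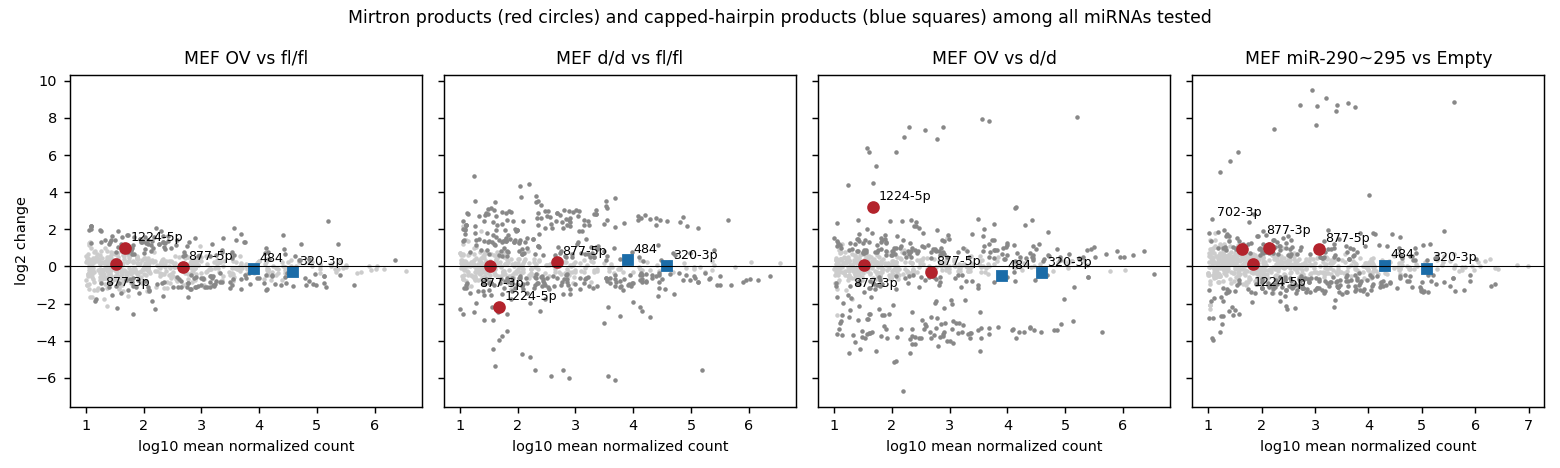
Log2 change against log10 mean normalized count for all miRNAs kept in each of the 4 comparisons; red circles are mirtron products, blue squares capped-hairpin products, dark grey points miRNAs with an adjusted p under 0.05. The members lie inside the cloud of other miRNAs, with miR-1224-5p at the lower and upper side in d/d against fl/fl (−2.20) and OV against d/d (3.18).

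The rest of the class held 15 further arms, of which 14 were listed in each MEF table: those of miR-702, miR-320, miR-1981, miR-1982 and miR-3102, of miR-664, whose arms lie in the small nucleolar RNA gene Snora36b, and of miR-1839, in a long noncoding RNA gene. The arms of miR-1981 (Marc2) and miR-3102 (Arhgef17) also start at the first base of an annotated intron. In OV against fl/fl 7 of the 11 kept arms passed by limma, 4 higher and 3 lower, where 31.3% of all 662 miRNAs did, 15.6% higher and 15.7% lower. They had a median of −0.27 beside −0.07 for all miRNAs. All 4 arms of miR-3102 rose, by 0.925 (5p), 0.702 (3p), 0.597 (5p.2) and 1.16 (3p.2). The 5p and 3p arms of miR-1839 changed by −0.702 and −1.08, and miR-664-5p by −0.504. Only miR-1839-5p among these 7 passed under all alternatives run for it. Without FL5, 2 of the arms passed, without FL3, 3, and without OV4 or FL4, 4. With 1 library left out the count over all miRNAs also moved, from 124 to 236, lowest without FL5.

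In d/d against fl/fl 9 of the 11 arms passed, 4 higher and 5 lower, where 58.3% of all 662 miRNAs did, 30.7% higher and 27.6% lower. Their median was −0.32 beside 0.01. MiR-702-5p, the other arm of miR-702, had 21.5, 37.8 and 20.1 normalized counts in fl/fl and 64.7, 109 and 151 in d/d. The groups did not overlap, and it rose by 1.96. The same seed is carried by miR-3102-5p, which rose by 0.817 but was not called with spike-in scaling (0.391), with medians re-centred, or without FL4 or DEL3. MiR-3102-5p.2-5p and miR-3102-3p.2-3p rose by 0.487 and 0.838, calls lost in 6 of 14 and 7 of 13 alternatives; for the latter the groups overlapped. The arms miR-1839-5p, miR-1839-3p, miR-664-5p, miR-664-3p and miR-1981-5p were lower, with log2 differences of −0.681, −0.896, −0.585, −1.15 and −0.759. Here miR-702-5p, miR-1981-5p, miR-1839-5p, miR-664-5p and miR-664-3p passed under all alternatives run for them, and miR-1839-3p was lost in 3 of 13. Between OV and d/d, 3 of 11 passed, where 52.4% of all miRNAs did, 2 higher (miR-3102-3p, 0.63, and miR-664-3p, 0.812) and miR-702-5p lower at −1.04. With spike-in scaling 9 passed, all higher, where 68.1% of all miRNAs passed and 50.1% were higher. Without spike-ins, leaving out DEL3 gave 0 arms. With any 1 library left out, 302 to 349 of all miRNAs passed. With miR-290~295, 2 of 12 passed, where 38.9% of all miRNAs did, miR-3102-5p.2-5p higher by 0.933 and miR-664-5p lower at −0.47. With spike-in scaling 5 passed, all lower, where 45.7% of all miRNAs passed and 39.1% were lower. Without spike-ins, leaving out 1 library gave 0 without Empty 2 or miR-290~295 library 1 or 3, 1 without Empty 3, 3 without miR-290~295 library 2 and 6 without Empty 1. In these fits the count over all miRNAs also moved, from 223 to 381. MiR-3102-5p.2-5p was also lost with spike-in scaling, and miR-664-5p with a replicate block. MiR-702-5p had 302.5, 111.6 and 117 normalized counts with Empty and 347, 249.5 and 372 with miR-290~295, a difference of 1.00 with an adjusted p of 0.0582 by limma; the groups overlapped through Empty 1.

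The arms of miR-877 and miR-702 were in unequal amounts, and in B cells their 3p arm took a larger share. In MEF the 3p arm made up 7.04% ± 1.73 (SD, n = 3) of miR-877 reads for OV, 6.30% ± 0.59 for fl/fl and 6.39% ± 3.68 for d/d. It made up 10.9% ± 3.6 with Empty and 10.8% ± 0.79 with miR-290~295. In the single B-cell libraries it was 22.6% (OV), 30.1% (fl/fl) and 28.7% (d/d), with Wilson 95% intervals of 17.5% to 28.7%, 26.0% to 34.6% and 24.9% to 32.8%. Every B-cell value lay above every MEF value. The sets were made and normalized separately, and whether cell type or set is behind the split cannot be told apart. The miR-877 5p to 3p log2 ratio differed between groups by −0.144 for OV against fl/fl, 0.214 for d/d against fl/fl, −0.358 for OV against d/d and −0.029 for miR-290~295 against Empty, with two-sided exact permutation p of 0.6, 1, 0.8 and 1, where 3 libraries against 3 cannot go below 0.1. Without DEL3, whose 3p share was 2.14%, the difference of d/d from fl/fl was −0.456 and that of OV from d/d was 0.312.

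For miR-702 more reads came from the 5p arm in MEF and from the 3p arm in B cells, where reads were few. The 3p arm held 16.8% ± 2.4, 15.2% ± 14.1 and 10.3% ± 7.0 of miR-702 reads in OV, fl/fl and d/d MEF, and 16.4% ± 7.2 and 15.3% ± 2.3 with Empty and miR-290~295. In B cells it held 61.9%, 78.9% and 63.6% in OV, fl/fl and d/d, from 13, 30 and 21 reads against 8, 8 and 12 of the 5p arm. The Wilson intervals were 40.9% to 79.3%, 63.7% to 88.9% and 46.6% to 77.8%, so those of OV and d/d include an even split. The highest MEF library, FL5, reached 28.0%, with 7 reads of the 3p arm and 18 of the 5p arm.

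**Figure D4:**
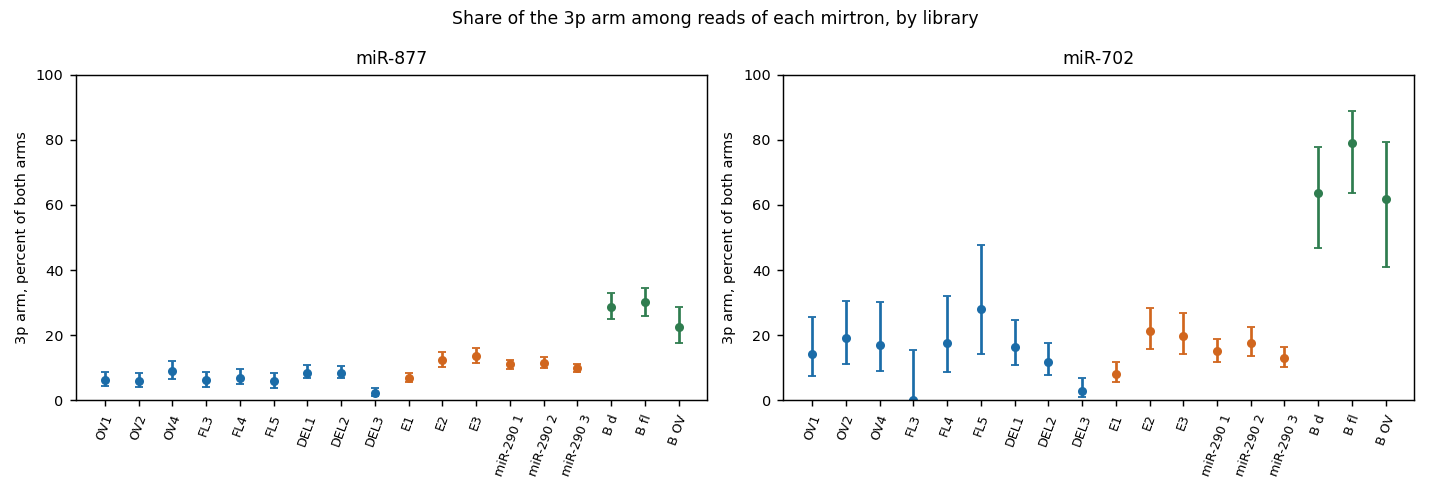
Percent of reads of the miR-877 (left) and miR-702 (right) hairpins that come from the 3p arm, 1 point per library with its Wilson 95% interval, in the miR-17~92 MEF set (blue), the miR-290~295 MEF set (orange) and B cells (green). B cells lie above MEF in both panels, with miR-702-3p at 61.9% to 78.9% of its hairpin's reads.

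B cells had 1 library per group, so no test was made, and the intervals cover counting error only. Past a 1.5-fold difference from fl/fl were 34.2% of 476 miRNAs in OV and 51.3% in d/d. Among the 5 members, 2 passed that size in OV (miR-877-3p, 64.3 against 124 normalized counts, and miR-702-3p, 17.4 against 28.3) and 1 in d/d (miR-702-3p, 16.7). The ratio of miR-877-3p to fl/fl in OV was 0.517 (95% interval 0.363 to 0.724). The ratios of miR-702-3p were 0.616 (0.295 to 1.22) in OV and 0.59 (0.321 to 1.065) in d/d, and both intervals include 1. MiR-484 ordered the groups as in MEF without spike-ins, with normalized counts of 11661 (d/d), 8154 (fl/fl) and 5958 (OV). Its ratio to fl/fl was 1.43 (95% interval 1.39 to 1.47) in d/d and 0.731 (0.705 to 0.758) in OV. MiR-320-3p had 14321, 14763 and 14115 in the d/d, fl/fl and OV libraries, ratios of 0.970 and 0.956 to fl/fl. MiR-877-5p had 286, 288 and 220, a ratio of 0.762 (0.626 to 0.924) in OV. On the RPM scale the d/d ratios of miR-877-5p, miR-877-3p and miR-320-3p changed direction, to log2 values of 0.24, 0.141 and 0.209. MiR-92a-3p of the miR-17~92 cluster took 307267, 103954 and 3697 RPM in the OV, fl/fl and d/d libraries. Summed fibroblast markers were 8185 in the d/d library against 2024 in fl/fl and 1937 in OV, and their part in these ratios was not tested. Of the rest of the class, 9 arms were listed in B cells. In OV 7 were below and 2 above fl/fl, where the median log2 ratio of all 476 miRNAs was 0.022 (quartiles −0.395 and 0.371). The ratios ran from 0.254 for miR-1982-3p (95% interval 0.0765 to 0.666) to 1.80 for miR-1839-3p (0.867 to 3.81). In d/d 4 were below and 5 above, where the median of all 476 was −0.012 (quartiles −0.655 and 0.518). The ratios of the same 2 arms were 0.361 (0.167 to 0.733) and 1.63 (0.845 to 3.27). Both intervals of miR-1839-3p include 1.

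The profiles most like each member over the 9 MEF libraries were found by the root-mean-square difference of centred log2 values. For miR-1224-5p the nearest was miR-92b-3p at 0.315, with means of 24808, 12230 and 2728 normalized counts (OV, fl/fl, d/d), then miR-34c-3p at 0.526, where the median over all miRNAs was 1.44. MiR-92b-3p has the seed of miR-92a-3p, a product of the deleted cluster, and the treatment of reads matching both remains not given in the sources used here. Among the steadier members the nearest profiles were miR-99b-3p (0.109) for miR-877-5p, miR-99b-5p (0.116) for miR-320-3p and miR-301a-5p (0.128) for miR-484. For miR-877-3p it was miR-100-3p, at 0.355.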

How the data were processed

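Mature miRNAs were measured by small RNA sequencing in 18 mouse libraries. Per the labels' protocols, total RNA with spike-ins was gel purified and made into libraries with the NEBNext small RNA kit. The deposited values are a signal, the reads of each miRNA scaled by a size factor of its library, in tables with and without spike-in scaling for MEF and in 1 table for B cells. The submitters' processing notes name DESeq2. Aligner, annotation and build: not given in the sources used here. Whole reads were recovered in 100% of values (within 0.01 of a read), and 33 columns of transformed values were not used.

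Tables without spike-ins were the main source. MiRNAs whose mean reached 10 normalized counts were tested by limma-trend (limma 3.58.1, R 4.3.3) on log2(normalized count + 1), a scale that understates the change of low miRNAs. Group was the sole term, and p-values were adjusted by Benjamini-Hochberg over every miRNA tested, at 0.05. The 9 libraries of the first MEF set shared 1 fit. OV and fl/fl columns were matched to groups only. B cells have exact Poisson intervals, and arm shares have Wilson intervals, both at 95%; they cover counting error only. Alternatives were spike-in scaling, re-centred medians, pseudocounts of 0.5 and 5, no minimum and a minimum of 100, edgeR 4.0.16 and DESeq2 1.42.0 on recovered reads, each library left out, a replicate block, and, for B cells, RPM. Scripts were tested on simulated data. All 6 members were named, with the rest of the class where an arm passed, and per member the nearest profiles. The members and lists were chosen with earlier results of these data known. Sequences and positions are RefSeq's (GRCm38.p6) and GENCODE's.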

Additional observations from a re-analysis of the deposited data

How the results depend on the processing

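With spike-in scaling, 1 member passed in OV against fl/fl, 1 in OV against d/d and 1 in miR-290~295 against Empty, where 23.5%, 68.1% and 45.7% of all miRNAs did. With this scaling, 9 and 5 further arms of the class passed in the last 2. Directions turned with it for miR-877-5p (0.101 in OV against fl/fl, −0.178 in d/d against fl/fl, 0.28 in OV against d/d), miR-877-3p (−0.378 in d/d against fl/fl), miR-320-3p (−0.391 and 0.207), miR-484 (−0.078, 0.067 and −0.444 with miR-290~295) and miR-1224-5p (−0.344 with miR-290~295). With medians re-centred they were −0.02 for miR-877-3p in OV against fl/fl, −0.032, −0.246 and −0.245 for miR-877-5p, miR-877-3p and miR-320-3p in d/d against fl/fl, and −0.068 for miR-484 with miR-290~295, and 1 member passed in d/d against fl/fl and in OV against d/d, where 61.5% and 52.9% of all miRNAs did. With edgeR, miR-877-5p was 0.009 in OV against fl/fl and miR-877-3p −0.135 in OV against d/d (−0.162 with DESeq2). In OV against fl/fl edgeR and DESeq2 each called 1 member, where they called 27.5% and 35.8% of all miRNAs. DESeq2 called 4 further arms with miR-290~295, where it called 41.4% of all 840 miRNAs. A pseudocount of 5 called 1 member in OV against fl/fl, and a minimum of 100 called 1 in d/d against fl/fl. The shares of all miRNAs under those 2 settings are not given here. In B cells, RPM turned d/d against fl/fl to 0.24, 0.141 and 0.209 for miR-877-5p, miR-877-3p and miR-320-3p. The causes were not tested.

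Leaving out 1 library gave 124 to 236 miRNAs called in OV against fl/fl (124 without FL5), 342 to 365 in d/d against fl/fl, 302 to 349 in OV against d/d and 223 to 381 with miR-290~295. Members called were 0 to 1, 1 to 2, 2 to 3 and 1 to 3, and further arms 2 to 6, 6 to 8, 0 to 2 and 0 to 6. In OV against fl/fl, miR-877-5p ranged from −0.143 to 0.069 and miR-877-3p from −0.022 to 0.285; in d/d against fl/fl, miR-877-3p ranged from −0.287 to 0.65 and miR-320-3p from −0.047 to 0.141; in OV against d/d, miR-877-3p ranged from −0.541 to 0.396; with miR-290~295, miR-1224-5p ranged from −0.159 to 0.308 and miR-484 from −0.031 to 0.12. The miR-877 arm ratio ranged from −0.268 to 0.061, −0.456 to 0.552, −0.695 to 0.312 and −0.242 to 0.312. In the miR-290~295 set, libraries of the same replicate number had correlations of 0.28, 0.012 and −0.261 in their deviations from the group means. Libraries of unlike numbers had −0.379 to 0.394. With 3 libraries per group these values cannot show whether the libraries were paired. With a replicate block 298 miRNAs and 3 members passed, against 327 and 3 without it. In the other MEF set no paired analysis was possible because the OV and fl/fl columns carry no replicate number of the labels.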
